A study of Mus musculus with 2 samples.

Results

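The genes described here are 8 genes of the Lis1 complex and of human neuronal migration disorders, Pafah1b1, Nde1, Ndel1, Ywhae, Dync1h1, Flna, Arfgef2 and Rnd2, which were chosen by symbol from 42462 annotated mouse genes. RNA was measured in the whole embryonic brain of the C57BL/6J mouse strain at day 14.5 of gestation, with no genetic change and no treatment given in the labels, in 2 libraries that form 1 group. The labels call the libraries biological replicates of mixed-sex littermates and do not say which animals went into which. Whether the spread between them is technical or biological was not tested. The libraries were stranded and paired-end, from polyadenylated RNA longer than 200 nt. Levels are in TPM, which scales reads by transcript length and by library. With 1 group there was no contrast between conditions and no test.

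A newborn cortical neuron moves along a radial glial fibre by pulling its nucleus and centrosome forward on microtubules. Cytoplasmic dynein, a minus-end motor built around the heavy chain Dync1h1, does much of that pulling. Lis1, the product of Pafah1b1, and the coiled-coil scaffolds Nde1 and Ndel1 bind dynein and tune its force, and the 14-3-3 protein Ywhae protects phosphorylated Ndel1. Loss of 1 copy of PAFAH1B1 in humans gives a smooth cortex, lissencephaly, and a deletion that also removes YWHAE gives the more severe Miller-Dieker syndrome. Flna crosslinks actin filaments and Arfgef2 drives vesicle traffic through Arf GTPases, and human mutations in either leave neurons stranded at the ventricle as periventricular heterotopia. Rnd2 is a small GTPase that in the mouse cortex is switched on by Neurog2 and is needed for radial migration.

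The gene tables held 103493289 expected counts on annotated genes in replicate 1 and 97539730 in replicate 2. Mitochondrial genes took 8.49% of TPM in replicate 1 and 12.2% in replicate 2. Set against the tissue label, all 10 radial glia and all 11 young neuron marker genes were at 1 TPM or more in both libraries. Of 11 Hox genes of hindbrain and spinal cord, 11 were higher in replicate 2 by over 1.5-fold, with summed TPM of 21.7 in replicate 1 and 194.7 in replicate 2. All 9 cortical excitatory neuron markers were higher in replicate 1, 6 of them by over 1.5-fold, with summed TPM of 539 in replicate 1 and 238 in replicate 2. The part these differences play in any value below was not tested.

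All 8 genes were expressed at 1 TPM or more in both libraries. Their levels covered a wide range, from Ywhae, among the most abundant messengers of the tissue, down to Arfgef2, near the middle of all protein-coding genes. The order of mean levels was Ywhae, Flna, Dync1h1, Rnd2, Pafah1b1, Ndel1, Nde1 and Arfgef2. Between neighbours in this order the ranges of the libraries overlapped only for Flna and Dync1h1, whose gene TPM was largely carried by short transcripts, as shown further on.

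**Figure D1:**
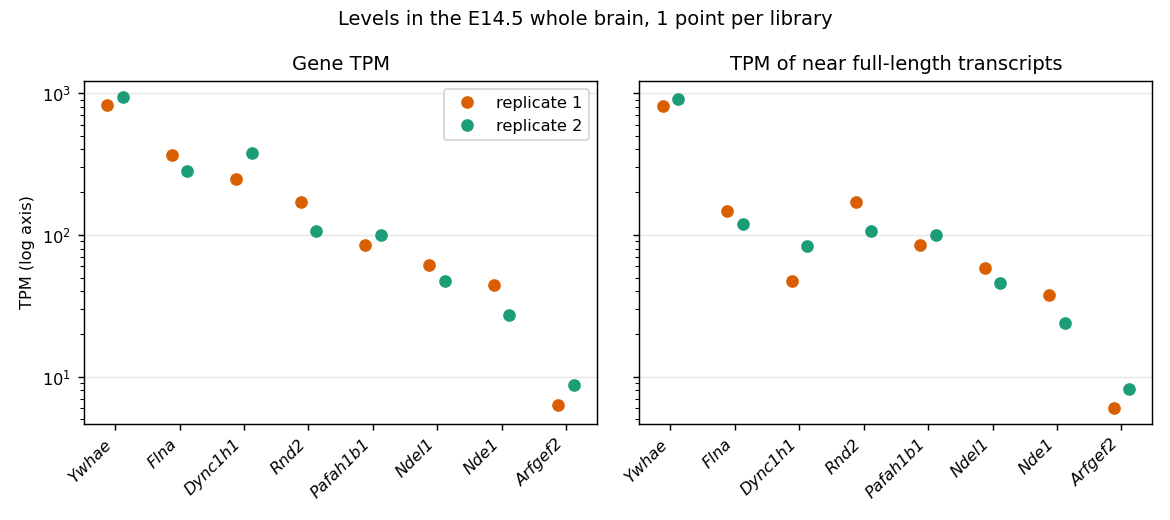
TPM of each gene in replicate 1 and replicate 2 on a log axis, for all transcripts of the gene (left panel) and for transcripts of at least 50% of the length of the longest coding transcript (right panel). Ywhae lies highest and Arfgef2 lowest in both panels, while Dync1h1 and Flna lie lower in the right panel than in the left.

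Pafah1b1, which encodes Lis1, lies on chromosome 11 at chr11:74673949-74724670 on the minus strand (mm10 coordinates, GENCODE vM21, here and below). It had 85.27 TPM in replicate 1 and 99.01 TPM in replicate 2, from 33431 and 34772 expected counts. Its mean of 92.1 ± 9.72 TPM (SD, n = 2) placed it above 91.0% of 21474 protein-coding genes in replicate 1 and above 93.4% in replicate 2. The difference between the libraries was small, with a log2 ratio of TPM + 1 of -0.21 (replicate 1 over replicate 2).

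Lis1 is also the non-catalytic subunit of the brain platelet-activating factor acetylhydrolase, whose catalytic subunits are encoded by Pafah1b2 and Pafah1b3. Pafah1b2 had 119.4 TPM in replicate 1 and 130.2 TPM in replicate 2. Pafah1b3 had 722.0 TPM in replicate 1 and 486.6 TPM in replicate 2. The log2 ratio of Pafah1b1 to Pafah1b3 was -2.69 ± 0.55 (SD, n = 2), and that of Pafah1b1 to Pafah1b2 was -0.44 ± 0.064. Here 2 genes were called apart if the ratio had 1 sign in both libraries and its log2 mean was over 1 and over its SD. By this limit Pafah1b3 messenger stood above both other subunits, and Pafah1b1 and Pafah1b2 were not apart.

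The chief Pafah1b1 transcript was Pafah1b1-201, with 72.7% of the gene's TPM in replicate 1 and 76.1% in replicate 2. Pafah1b1-202, which starts from another first exon, was estimated at 18.6% of TPM in replicate 1 and 16.5% in replicate 2. Spliced reads gave a lower share. In the junction table, made by the authors on the mm9 genome with both libraries summed, the first-exon junction of Pafah1b1-202 had 32 of 951 reads at the shared acceptor, 3.36% (exact binomial 95% interval 2.31 to 4.72), and that of Pafah1b1-201 had 907. Intervals of this kind cover counting error only. All 10 junctions of Pafah1b1-201 were read, by 547 to 3334 reads each, and 1 of them was listed 1 nt away from its annotated place.

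Ywhae, the 14-3-3 epsilon gene, lies on the same chromosome at chr11:75732869-75765845 on the plus strand. It had 823.9 TPM in replicate 1 and 943.9 TPM in replicate 2, from 104887 and 106125 expected counts. It ranked 113 among the protein-coding genes in replicate 1 and 79 in replicate 2. Ywhae stood at a near-constant distance from Pafah1b1, with a log2 ratio of 3.26 ± 0.014 (SD, n = 2), which is 9.66-fold in replicate 1 and 9.53-fold in replicate 2.

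All 7 genes of the 14-3-3 family were at 1 TPM or more in both libraries, and Ywhae was the highest of them. The next was Ywhaq with 448.2 TPM in replicate 1 and 457.1 TPM in replicate 2. The lowest was Sfn with 8.31 TPM in replicate 1 and 9.03 TPM in replicate 2. Ywhae was apart from Ywhaz, with a log2 ratio of 1.56 ± 0.14, and from Ywhag, with 1.64 ± 0.44 (SD, n = 2 each). Ywhag was the only member of the family past 1.5-fold between the libraries, with 213.4 TPM in replicate 1 and 376.7 TPM in replicate 2. Ywhae itself was nearly a single-form gene: Ywhae-201 held 98.6% of its TPM in replicate 1 and 96.0% in replicate 2. Its first junction had 26596 reads, against 22 reads for the alternative first-exon end of Ywhae-202, 0.0826% of reads at that acceptor, and 19 of these 22 reads were in the library that the junction table numbers 2.

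The mouse genome keeps Pafah1b1 and Ywhae as neighbours on chromosome 11, as does the human region deleted in Miller-Dieker syndrome. The stretch between them, chr11:74724671-75732868, spans 1.01 Mb and holds 24 protein-coding genes. Of these, 22 were at 1 TPM or more in both libraries, with a median over all 24 of 17.5 TPM in replicate 1 and 17.1 TPM in replicate 2. The highest were Prpf8, a core protein of the spliceosome, with 119.1 TPM in replicate 1 and 119.0 TPM in replicate 2, then Pitpna, a phosphatidylinositol transfer protein, with 90.2 and 99.5 TPM, and Crk, an adaptor of the reelin pathway, with 72.1 and 69.3 TPM. Prpf8 and Pitpna were the 2 genes of the stretch above Pafah1b1 in each library, and no gene of it came near Ywhae. The lowest were Serpinf2, Rilp and Tlcd2, with means of 0.185, 1.00 and 1.24 TPM.

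Nde1 and Ndel1 encode closely related scaffolds that hold Lis1 on dynein. In humans, loss of NDE1 gives a very small and smooth brain, and in mice Nde1 is known for its role in dividing progenitors and Ndel1 for its role in migrating neurons. Nde1, at chr16:14163275-14192928 on the plus strand, had 44.38 TPM in replicate 1 and 27.34 TPM in replicate 2. Ndel1, at chr11:68821434-68871858 on the minus strand, had 61.41 TPM in replicate 1 and 47.45 TPM in replicate 2. Nde1 was below Ndel1 in both libraries, at 0.723-fold in replicate 1 and 0.576-fold in replicate 2. The mean log2 ratio of -0.63 ± 0.23 (SD, n = 2) did not reach the limit for a pair set apart. Both genes were also below Pafah1b1, and Nde1 was apart from it, with a log2 ratio of -1.40 ± 0.65. Without replicate 2 that ratio was -0.94, which is inside the limit.

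Nde1 transcripts end in 3 ways. They share the exon before the last and then splice to last exons that begin at different places, so that the proteins end differently. The lines below show the final 18 bases of the shared exon in lower case and the first bases of each last exon in capitals, up to the stop codon where it comes within 24 bases. The last exon of Nde1-201 starts at chr16:14191718, that of Nde1-202 at chr16:14191590 and that of Nde1-203 at chr16:14192342 (mm10, plus strand).
Nde1-201 last exon: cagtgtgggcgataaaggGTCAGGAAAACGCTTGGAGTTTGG
Nde1-202 last exon: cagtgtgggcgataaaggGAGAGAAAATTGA
Nde1-203 last exon: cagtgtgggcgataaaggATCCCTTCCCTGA

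Read in frame from the annotated start, Nde1-201 codes for 344 amino acids and both other forms for 317, and the forms share the first 313 whole codons. The splice site that all of them use had 506 spliced reads. Of these, 450 went to the last exon of Nde1-201, 24 to that of Nde1-202, which is 4.74% (exact 95% interval 3.06 to 6.98), and 30 to that of Nde1-203, which is 5.93% (4.04 to 8.36). The longer form thus made up most of the reads at this site. In the libraries that the junction table numbers 1 and 2, the share of Nde1-202 was 6.60% (20 reads) and 1.97% (4 reads).

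A further Nde1 form showed how far estimated and observed isoforms can differ. Nde1-205, annotated as a target of nonsense-mediated decay, was estimated at 18.8% of the gene's TPM in replicate 1 and 2.89% in replicate 2. It differs from Nde1-201 by the skip of 1 exon. The skipping junction had 4 reads, against 308 and 285 reads on the junctions that enter and leave that exon. Nde1-201 was estimated at 51.8% of TPM in replicate 1 and 74.2% in replicate 2.

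Ndel1 used 1 main form, Ndel1-201, with 93.8% of TPM in replicate 1 and 94.2% in replicate 2. Its last intron held a small exon of 35 nt, at chr11:68826170-68826204 on the minus strand. The exon is annotated in Ndel1-205, a processed transcript of 1059 nt that is not annotated as coding. The exon is shown in capitals with 18 bases of its neighbours in lower case, since its length is not a multiple of 3.
Ndel1 35-nt exon: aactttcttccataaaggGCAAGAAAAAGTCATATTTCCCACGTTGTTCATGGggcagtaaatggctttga

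The junctions into and out of this exon had 55 and 73 reads, against 1058 reads that skipped it. This was 4.94% inclusion at the upstream junction (exact 95% interval 3.74 to 6.38) and 6.45% at the downstream junction (5.09 to 8.05). Placed in Ndel1-201, the exon shifts the frame after codon 314, and the reading frame then ends at 328 codons in place of 345. A protein made from such a form would have its last part replaced, and whether one is made was not tested.

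Dync1h1, the heavy chain and motor of cytoplasmic dynein, lies at chr12:110601452-110666945 on the plus strand. It had 248.7 TPM in replicate 1 and 377.9 TPM in replicate 2. Of the 8 genes it alone was past 1.5-fold higher in replicate 2 (1.52-fold), where 9.43% of all genes were. Most of this TPM was assigned to transcripts that are not annotated as coding. Dync1h1-201, the full transcript of 14342 nt, had 47.52 TPM in replicate 1 and 83.39 TPM in replicate 2, which is 19.1% and 22.1% of the gene's TPM. The remaining TPM lay on short transcripts annotated as retained introns, chiefly Dync1h1-204 of 427 nt, with 49.6% of TPM in replicate 1 and 50.7% in replicate 2, and Dync1h1-207 of 621 nt, with 24.9% and 21.0%.

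Because TPM divides reads by length, a short transcript needs few reads to reach a high value. By expected counts the picture was the reverse, with 92.4% of the gene's counts on Dync1h1-201 in replicate 1 and 93.5% in replicate 2. Dync1h1-204 covers exons 71 to 72 of the 77 exons of Dync1h1-201 and Dync1h1-207 covers exons 65 to 67, and both lie in the stretch nearest the 3′ end, where junction reads were highest. The full transcript Dync1h1-201 averaged 65.5 ± 25.4 TPM (SD, n = 2), below Pafah1b1 in place of above it. By the authors' mean RPKM on mm9 Dync1h1 stayed above, with 48.9 against 11.7 for Pafah1b1. The lower TPM divides by the whole length of a transcript whose reads were concentrated near the 3′ end. Which order holds was not tested.

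Flna, the filamin A gene at chrX:74223461-74249820 on the minus strand, had 366.2 TPM in replicate 1 and 282.9 TPM in replicate 2. It showed the same pattern to a lesser degree. Transcripts of at least 50% of the longest coding length held 40.5% of its TPM in replicate 1 and 42.3% in replicate 2, but 89.6% and 90.2% of its expected counts. Summed, they reached 148.3 TPM in replicate 1 and 119.8 TPM in replicate 2. The short transcripts Flna-212 and Flna-211, both retained introns near the 3′ end, held 23.1% and 15.9% of TPM in replicate 1 and 22.7% and 17.4% in replicate 2.

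Among 7021 protein-coding genes that averaged at least 10 TPM and had several transcripts, the median share of TPM on such short transcripts was 11.2%, and 12.2% of these genes had a share over 50%. Dync1h1 with a mean of 79.4% and Flna with 58.6% were both on that upper side, and 3.10% and 8.30% of the genes had a larger share. Nde1 had a mean of 13.8%, Arfgef2 5.17%, Ndel1 3.94%, Ywhae 2.74%, and Pafah1b1 and Rnd2 had none. By near full-length transcripts, a measure chosen after the data were seen, the order was Ywhae, Rnd2, Flna, Pafah1b1, Dync1h1, Ndel1, Nde1 and Arfgef2.

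**Figure D2:**
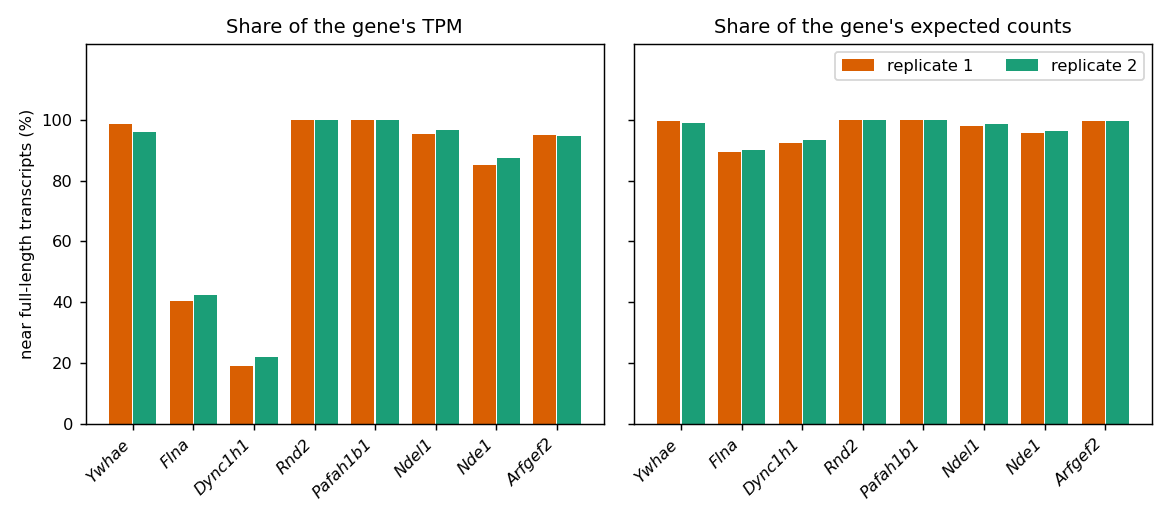
Share of each gene's TPM (left panel) and of its expected counts (right panel) on transcripts of at least 50% of the longest coding length, in percent, as bars for replicate 1 and replicate 2. Dync1h1 at 19.1% and 22.1% and Flna at 40.5% and 42.3% are low by TPM, and every gene is at 89.6% or more by counts.

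Reads over the junctions of Dync1h1 climbed along the gene. The 26 junctions nearest the 5′ end had a median of 277.5 spliced reads, the 25 in the middle a median of 783 and the 25 nearest the 3′ end a median of 3124. The first junction had 228 reads and the one before the last had 8243. Arfgef2 and Flna showed the climb on a smaller scale, with medians of 52 and 1627 reads near the 5′ end and of 168 and 3848 reads near the 3′ end. Medians near the 5′ and 3′ ends also rose in Pafah1b1 (714 and 2536), Nde1 (308 and 661.5) and Ndel1 (742 and 1009.5).

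The junction table also gives reads for libraries that it numbers 1 and 2, which no label ties to the replicates named here. Library 1 held 52.5% of all junction reads. On the chief coding transcript it held 64.8% of reads in Rnd2 and 60.8% in Nde1, both higher in replicate 1. In Dync1h1, which was higher in replicate 2, it held 39.7%. Whether the numbers match the replicates was not tested. Along Dync1h1 the share of library 1 was 30.0% near the 5′ end, 32.8% in the middle and 42.4% near the 3′ end. Along Arfgef2 it was 36.8%, 44.7% and 42.1%, and along Flna 54.7%, 56.8% and 58.6%. In each of these 3 genes library 1 had a lower share near the 5′ end than near the 3′ end. The same held for Pafah1b1 (43.2% and 48.8%), Nde1 (49.6% and 62.6%) and Ndel1 (49.1% and 57.6%). Ywhae and Rnd2, with few junctions, were not divided in this way.

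**Figure D3:**
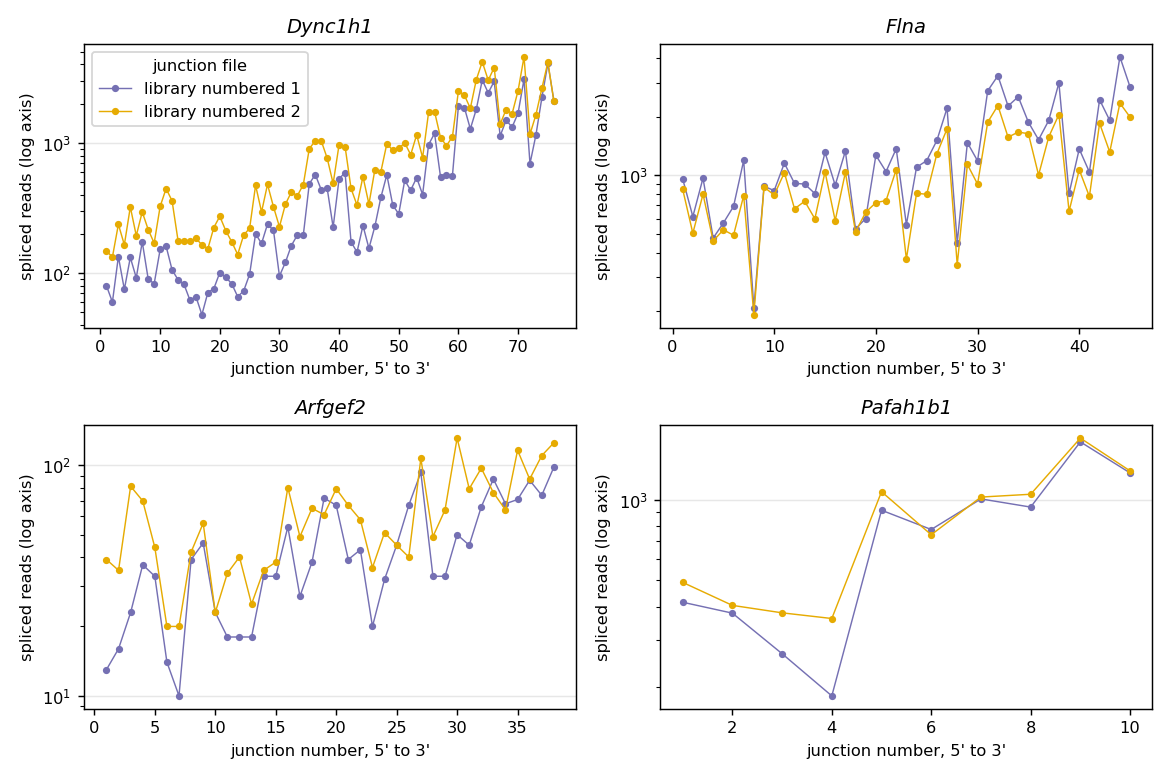
Spliced reads on each junction of the chief coding transcript of Dync1h1, Flna, Arfgef2 and Pafah1b1, numbered 5′ to 3′, on log axes, for the libraries that the junction table numbers 1 and 2. Reads climb toward the 3′ end, and in Dync1h1 the gap between the lines is wider at the 5′ end than at the 3′ end.

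Dync1h1 showed a choice between splice acceptors 3 nt apart at the start of exon 64, chr12:110659441-110659443 on the plus strand. The bases that the minor form leaves out are in capitals, after the last 18 bases of exon 63.
Dync1h1 acceptor: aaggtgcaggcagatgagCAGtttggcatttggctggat

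The minor acceptor had 160 of 5031 reads at the shared donor, 3.18% (exact 95% interval 2.71 to 3.70), so most of these reads kept the bases. This junction was not in the Ensembl 65 annotation that the mm9 files used. A skip of 1 whole exon near the end of the gene had 32 reads, 1.69% of reads at its donor (1.16 to 2.38), with 2.81% (20 reads) in the library numbered 1 in the junction table and 1.02% (12 reads) in that numbered 2.

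Filamin A had the largest alternative share at a single splice site among the 8 genes. An annotated exon of 24 nt, exon 29 of Flna-201 at chrX:74232967-74232990 on the minus strand, was included in most messengers. It is shown in capitals between 18 bases of each neighbour, and it adds whole codons, with 2647 in Flna-201 and 2639 in Flna-202, which lacks it.
Flna 24-nt exon: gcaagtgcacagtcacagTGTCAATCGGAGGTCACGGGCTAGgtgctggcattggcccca

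The junctions into and out of this exon had 2983 and 2825 reads, against 798 that skipped it. Inclusion was 78.9% at the upstream junction (exact 95% interval 77.6 to 80.2) and 78.0% at the downstream junction (76.6 to 79.3), and the intervals overlapped. In the libraries numbered 1 and 2 inclusion was 77.9% and 79.1%.

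A second Flna exon was not in the annotation. In the intron that follows exon 8 of Flna-202, reads joined to a stretch of 57 nt at chrX:71486155-71486211 (mm9). The junctions into and out of it had 469 and 850 reads, against 400 reads that skipped it. Inclusion was 54.0% at the upstream junction (50.6 to 57.3) and 68.0% at the downstream junction (65.3 to 70.6). The sides thus differed beyond their counting intervals, while both put the exon in more than 50% of the spliced reads. All spliced reads at the intron's donor and acceptor were 875 and 1251, against 1981 and 1750 on the junctions before and after it. The cause of this gap was not tested. In the libraries numbered 1 and 2 mean inclusion over the sides was 64.7% and 59.1%. Its length is a multiple of 3. None of the Ensembl 65 transcripts of Flna holds either junction.

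Flna also gave an example of a transcript that counts favour and junctions do not. Flna-213, annotated as a target of nonsense-mediated decay, held 52.2% of the gene's expected counts in replicate 1 and 49.7% in replicate 2. It includes the 24-nt exon, and differs further from the coding forms by an acceptor 2 nt away. That acceptor had 5 reads, 0.285% of 1755 reads at the shared donor (0.0926 to 0.664), and the acceptor of the coding forms had 1750. Of the 5 reads, 4 were in the library numbered 1 in the junction table and 1 in that numbered 2. Flna-201, the coding form with the 24-nt exon, was estimated at 0.469% of counts in replicate 1 and 3.52% in replicate 2.

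Flna was far above Flnc, the muscle filamin, which had 2.46 TPM in replicate 1 and 6.76 TPM in replicate 2. The log2 ratio of Flna to Flnc was 6.30 ± 1.29 (SD, n = 2). Flnc was past 1.5-fold higher in replicate 2.

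Arfgef2, at chr2:166805588-166898052 on the plus strand, encodes an exchange factor that loads Arf GTPases with GTP at the trans-Golgi and endosomes. It was the lowest of the 8 genes, with 6.32 TPM in replicate 1 and 8.71 TPM in replicate 2, from 3522 and 4345 expected counts. It lay above 51.8% of protein-coding genes in replicate 1 and above 54.6% in replicate 2. Its paralog Arfgef1 had 43.8 TPM in replicate 1 and 44.4 TPM in replicate 2, so Arfgef2 was the lower of the pair by a log2 ratio of -2.57 ± 0.31 (SD, n = 2). Gbf1, the Golgi exchange factor, was the highest of the 4 large exchange factors at 79.1 ± 1.26 TPM. The lowest was Arfgef3, with 1.74 TPM in replicate 1 and 3.19 TPM in replicate 2, the only 1 of them past 1.5-fold between the libraries.

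The Arf GTPase genes were far more abundant than Arfgef2. Arf1 had 486 ± 79.9 TPM and the lowest of the 5 Arf genes, Arf6, had 32.0 ± 2.10 TPM (SD, n = 2 each), and none was past 1.5-fold between the libraries. The full transcript Arfgef2-201 held 94.9% of the gene's TPM in replicate 1 and 94.7% in replicate 2. An annotated skip of 1 exon, of Arfgef2-202, had 12 reads of 47 at its donor, 25.5% (exact 95% interval 13.9 to 40.3). At its acceptor it had 12 reads of 42, 28.6% (15.7 to 44.6). Both ranges are wide since reads were few. The junctions into and out of that exon had 34 and 30 reads, against a median of 101.5 over the gene's junctions. The estimate for Arfgef2-202 was lower, at 5.06% of TPM in replicate 1 and 5.28% in replicate 2.

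Rnd2, at chr11:101464999-101471853 on the plus strand, had 169.8 TPM in replicate 1 and 106.0 TPM in replicate 2. It was apart from Rnd1, with 11.3 TPM in replicate 1 and 10.6 TPM in replicate 2, by a log2 ratio of 3.61 ± 0.42. Rnd3, which also acts in radial migration in the mouse, had 63.5 TPM in replicate 1 and 84.7 TPM in replicate 2. Rnd2 was above Rnd3 by 2.67-fold in replicate 1 and 1.25-fold in replicate 2, a log2 ratio of 0.87 ± 0.77 (SD, n = 2) that did not set them apart.

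Rnd2 transcripts began at more than 1 place. Rnd2-201 held 88.4% of the gene's TPM in replicate 1 and 87.7% in replicate 2, and Rnd2-202, which has an upstream first exon, held 10.6% in each. Rnd2-202 and Rnd2-203, which share the junction of that exon, are annotated as processed transcripts and not as coding. Junctions gave a like figure: the upstream first exon had 220 of 1641 reads at the shared acceptor, 13.4% (exact 95% interval 11.8 to 15.2). A stretch of 133 nt within the second intron, with both junctions outside the Ensembl 65 annotation, was joined by 79 reads at its start and 306 at its end, against 1936 that skipped it. That was 3.92% (3.12 to 4.86) at the upstream and 13.6% (12.3 to 15.1) at the downstream junction.

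**Figure D4:**
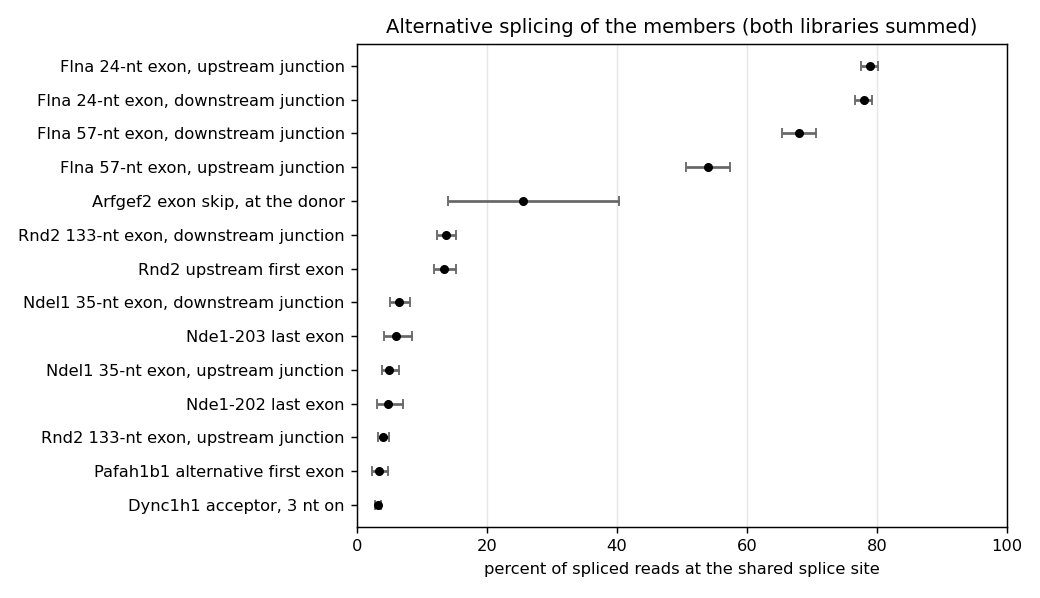
Percent of spliced reads at a shared splice site taken by selected alternative forms, both libraries summed, with exact binomial 95% intervals as bars. The Flna exons of 24 nt and 57 nt lie between 54.0% and 78.9%, and all other plotted values lie at 25.5% or below. The Arfgef2 exon skip is shown at its donor only.

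Over the 8 genes, 20 alternative junctions had 10 reads or more and 1% or more of the reads at a splice site shared with the chief coding transcript. Of these, 9 were annotated in Ensembl 65 and 11 were not. Flna had 6, Ndel1 and Rnd2 had 4 each, Nde1 and Dync1h1 2 each, Pafah1b1 and Arfgef2 1 each, and Ywhae none. The share of a gene's junction reads that lay outside its chief coding transcript ran from 0.443% in Dync1h1 to 6.73% in Rnd2. Reads on the opposite strand within the genes were few, at most 12, in Rnd2.

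Between the libraries, 3 of the 8 genes were past 1.5-fold on the log2(TPM + 1) scale. Among 15127 annotated genes with a mean TPM of at least 1, the share past this limit was 15.8%. Nde1 at 1.60-fold and Rnd2 at 1.60-fold were higher in replicate 1, where 6.39% of all genes were past the same limit, and Dync1h1 was higher in replicate 2, where 9.43% were. The log2 ratios were 0.68 for Nde1, 0.67 for Rnd2, 0.37 for Flna, 0.37 for Ndel1, -0.20 for Ywhae, -0.21 for Pafah1b1, -0.41 for Arfgef2 and -0.60 for Dync1h1. In this ordering Nde1 and Rnd2 led, and the median absolute ratio of all genes was 0.27. With so few genes, 3 past the limit is a description of these libraries.

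Counts on these genes were high enough that counting error was small beside the gap. The log2 ratio of expected counts, each over its library's gene total, was 0.71 for Nde1 (exact binomial 95% interval 0.65 to 0.78), 0.74 for Rnd2 (0.70 to 0.78) and -0.72 for Dync1h1 (-0.74 to -0.71).

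**Figure D5:**
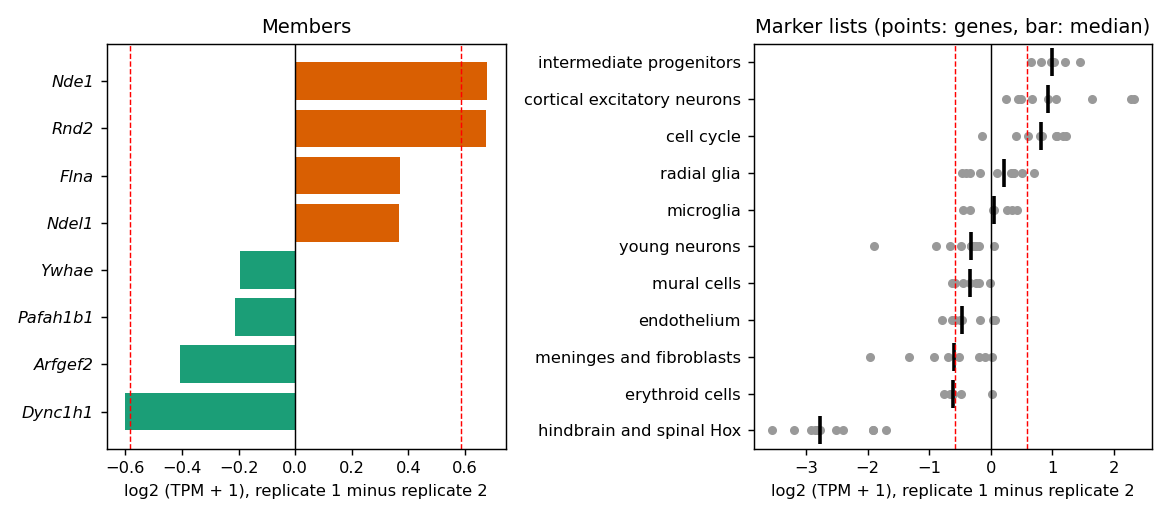
Difference in log2(TPM + 1), replicate 1 minus replicate 2, for the 8 genes (left panel, bars) and for marker genes of cell types with a mean TPM of at least 1 (right panel, points, with list medians as black bars), with red dashed lines at 1.5-fold. Nde1 and Rnd2 reach past the line on the side of replicate 1, as do the medians of intermediate progenitors, cortical excitatory neurons and cell cycle genes.

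Marker genes of some cell classes differed in the direction of Nde1 and Rnd2. Of 10 cell cycle genes, 8 were past 1.5-fold higher in replicate 1 and none higher in replicate 2, with summed TPM of 801 in replicate 1 and 428 in replicate 2. All 6 intermediate progenitor markers were past it in the same direction, with summed TPM of 356.9 in replicate 1 and 175.4 in replicate 2. Neurog2, which induces Rnd2 in the mouse cortex, had 82.1 TPM in replicate 1 and 35.0 TPM in replicate 2. Of 10 radial glia markers, 1 was past 1.5-fold higher in replicate 1 and 9 were within it, with summed TPM of 2195 in replicate 1 and 2019 in replicate 2. Of 11 young neuron markers, 3 were past 1.5-fold higher in replicate 2 and 8 were within it, with summed TPM of 6279 in replicate 1 and 7246 in replicate 2. Past 1.5-fold higher in replicate 2 were also 4 of 8 meningeal and fibroblast genes, 2 of 9 endothelial genes, 2 of 7 mural cell genes and 3 of 5 erythroid genes with a mean TPM of at least 1, and none of these lists had a gene past it in replicate 1. The 7 microglial genes were all within 1.5-fold. In whole tissue, fewer cells of a type and less RNA per cell cannot be told apart, and the part of these markers in the values of Nde1, Rnd2 and Dync1h1 was not tested.

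Transcript length moved with the ratio as well. Over 13642 protein-coding genes in 10 groups by the length of the longest transcript, the median log2 ratio was 0.27 for the shortest and -0.30 for the longest. Relative to the median of its own length group, Flna was at 0.67 and Nde1 at 0.60, both past 1.5-fold, Rnd2 was at 0.51 and Dync1h1 at -0.30. This comparison was chosen after the data were seen. Its part in the ratios was not tested.

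Among 11 cytoplasmic dynein subunits, Dync1h1 was the only one past 1.5-fold higher in replicate 2. The intermediate chain Dync1i1 was the only one past it in replicate 1, with 19.2 TPM in replicate 1 and 10.4 TPM in replicate 2. Over all genes, 9.43% were past the limit higher in replicate 2 and 6.39% higher in replicate 1. Whether this or any list below departs from these shares was not tested. The chief intermediate chain was Dync1i2, with 176.5 TPM in replicate 1 and 177.7 TPM in replicate 2, apart from Dync1i1 (log2 ratio of Dync1i1 to Dync1i2 -3.65 ± 0.63, SD, n = 2). The highest subunit by mean TPM was the light chain Dynlt1b at 655 ± 121 TPM, although in replicate 2 Dynlrb1 stood at 569.6 TPM and Dynlt1b at 569.3 TPM, and the lowest was Dynlrb2 at 6.37 ± 0.48 TPM. The median subunit had a log2 ratio between the libraries of -0.0098, against -0.012 for all genes.

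For dynactin, the complex that makes dynein processive, messengers of 12 of 12 listed subunits were at 1 TPM or more in both libraries. Actr1b, an actin-like filament subunit, was the only one past 1.5-fold, with 238.9 TPM in replicate 1 and 158.2 TPM in replicate 2. The highest by mean TPM was Dctn2 at 218 ± 30.6 TPM, although in replicate 2 Actr1a stood at 196.4 TPM and Dctn2 at 196.1 TPM, and the lowest Actr10 at 32.9 ± 0.23 TPM. Dync1h1 and the large dynactin subunit Dctn1 were not apart by gene TPM, with a log2 ratio of 0.72 ± 0.36.

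Of 17 dynein adaptors and Lis1 partners, Cdk5, the kinase that phosphorylates Ndel1, was the only gene past 1.5-fold, with 130.5 TPM in replicate 1 and 81.7 TPM in replicate 2. Its activator Cdk5r1 was the highest of the list at 267 ± 3.30 TPM, and Disc1, which binds Ndel1, was the lowest, with 1.32 TPM in replicate 1 and 1.59 TPM in replicate 2. Nudc, a partner that stabilises Lis1, had 98.3 TPM in replicate 1 and 127.4 TPM in replicate 2.

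Among 23 other lissencephaly and heterotopia genes, all were at 1 TPM or more in both libraries. Tuba1a, the tubulin most often mutated in lissencephaly, was the highest with 10398 TPM in replicate 1 and 12272 TPM in replicate 2. Cradd was the lowest at 6.03 ± 0.42 TPM. Past 1.5-fold higher in replicate 2 were Map1b, Tubg1, Kif5c, Lamb1 and Kif2a, genes of microtubules, kinesins and basement membrane, of which Map1b had 99.2 TPM in replicate 1 and 250.2 TPM in replicate 2. The median log2 ratio of the list was -0.12.

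Of 17 effectors of neuronal migration, 3 were past 1.5-fold higher in replicate 1 (Neurog2 and Cdk5 among them) and 3 higher in replicate 2 (Astn1, Cdk5r2 and Robo1). Over all genes, 15.8% were past it in either direction, and this list was not tested against that share. Astn1, an adhesion protein of gliding neurons, had 31.7 TPM in replicate 1 and 54.2 TPM in replicate 2.

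For each of the 8 genes, the protein-coding gene with the most similar pair of levels was found as the smallest distance of log2(TPM + 1) over the 2 libraries. These were Nrd1 for Pafah1b1, Tacc3 for Nde1, Mrpl13 for Ndel1, Rps6 for Ywhae, Hnrnpa3 for Dync1h1, Cnn3 for Flna, Cep97 for Arfgef2 and Ankrd10 for Rnd2. The distances ran from 0.0090 for Nrd1 to 0.097 for Rps6. With 2 libraries, likeness of this kind is a matter of level and of 1 difference.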

How the data were processed

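Polyadenylated RNA of 2 libraries of 1 group was analysed. The authors' deposited gene and transcript tables hold expected counts, TPM and FPKM, and, for transcripts, the percent of a gene's TPM, on mm10 with GENCODE M4 per the deposited text notes. The sources used here name no tool for this estimate. Spike-in and mitochondrial rows are part of the total to which the authors scaled TPM. The authors' mm9 junction table holds read counts summed over both libraries and a reproducibility fraction, and their mm9 gene table holds RPKM for libraries not tied to a sample, of which the mean was used.

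Ensembl IDs were matched to GENCODE vM21 for symbols and coordinates, and transcript sequences from the same release. Spike-in rows took 4.12% of expected counts in replicate 1 and 3.53% in replicate 2 and were left out of library sizes. The 26248 rows named by numbers held no counts. Gene totals, 103493289 in replicate 1 and 97539730 in replicate 2, set a counting floor of 3 counts.

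Levels were compared between genes in TPM. Ratios are replicate 1 over replicate 2 of TPM plus a pseudocount of 1, set against a 1.5-fold limit over genes with a mean TPM of at least 1. The junction chain is that of the coding transcript with the highest count in replicate 1, and junctions listed up to 5 nt away from the annotated place were matched to it. Alternatives used TMM factors (edgeR 4.0.16) and DESeq2 1.42.0 size factors on rounded counts, for scaling only; other steps used Python 3.11.15, pandas 2.3.3 and scipy 1.17.1. No p-value was computed, since 1 group of 2 libraries leaves no contrast. The ratio script was tested on simulated data.

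The 8 genes, the 11 lists, the 19 pairs and the 11 marker lists were chosen with earlier results of these data known. Named genes are the 8 genes, both genes of each pair, in each list the highest, the lowest and every gene past 1.5-fold, the 3 highest and 3 lowest of the stretch on chromosome 11 and the nearest gene by level; Nudc was added after its values were seen. The erythroid list matched 7 of 8 genes. Values of some single genes of the lists are not reported here, although the counts include them.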

Additional observations from a re-analysis of the deposited data

How the results depend on the processing

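The 8 genes at 1 TPM or more in both libraries were 7 at 10 TPM, without Arfgef2, and 8 at 0.1 TPM. Levels by FPKM, posterior mean TPM and TPM rescaled without mitochondrial and spike-in rows gave the same order of the 8 genes; by mm9 RPKM, and without replicate 1, Dync1h1 and Flna changed places. Nde1, Rnd2 and Dync1h1 stayed past 1.5-fold, and no other gene passed it, with a pseudocount of 0.1, rescaled TPM, TMM factors, DESeq2 size factors, posterior mean TPM and near full-length transcripts. Less the median of genes of like transcript length, 0 genes were past it higher in replicate 2, the 2 higher in replicate 1 were Nde1 and Flna, and Pafah1b1 changed sign, with 0.086 in place of -0.21; the cause was not tested. Of all genes, 6.12% were past 1.5-fold with no filter, 14.3% at a mean of 10 TPM, and 3.48% past 2-fold, as no filter adds genes of low level and a wider limit takes fewer. Pairs apart were 12 of 19; they were 12 by FPKM and with a pseudocount of 1, 14 by mm9 RPKM, and 12 to 14 without 1 replicate. Of the transcript shares at 10% or more, 13 of 18 moved by more than the spread between the libraries when taken over expected counts. All 20 alternative junctions had a reproducibility value of 0.1 or less. No paired analysis was possible because both libraries belong to 1 group. Only 2 libraries limit every SD here, and Arfgef2 is limited by its low junction counts.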
